A study of Homo sapiens with 28 samples.

Results

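Among the H3K4me3 regions of human embryonic stem cells, 218 lay inside or at the edge of a broad H3K27me3 domain and carried both marks in every cell cycle fraction. They were chosen by the presence of peaks of both marks and by the width of H3K27me3 peaks in early G1, in 3 steps. H3K4me3 peaks of the 4 fractions were merged where they overlapped by at least 1 bp, which gave 32799 regions, 30534 of them on chromosomes 1 to 21. Of these, 14664 had an H3K4me3 peak in every fraction, and 1853 (12.6%, exact 95% interval 12.1 to 13.2) also overlapped an H3K27me3 peak in every fraction and are called bivalent. The 218 regions are the bivalent ones that overlapped an H3K27me3 peak of at least 5 kb in early G1, which is 11.8% of the bivalent regions (10.3 to 13.3). They lay in 183 such peaks, here called domains. The other 1635 bivalent regions are the comparison. No annotation of the genome build of the files was used, so whether each region is the promoter of a gene was not determined, and regions are given by position.

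The cells express Fucci, a pair of fluorescent reporters degraded at different points of the cycle, and were sorted into early G1 (negative for both reporters, DN), late G1 (KO2), S phase (AzL) and G2/M (AzH). All fractions came from cells in a defined medium free of serum and feeders, with heregulin b1, activin A, an IGF-1 analogue and FGF2. The labels name 1 cell line and no parent line, clone or separate culture. ChIP-seq of H3K4me3, H3K27me3, H3K27ac and H3K4me1 and 4C-seq from viewpoints beside GATA6 and SOX17 gave 1 library for each mark or viewpoint and fraction, so fractions cannot be compared beyond replicate error and no p-value is given. Values given in fours follow the cycle from early G1 through late G1 and S phase to G2/M.

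H3K4me3 is deposited at the start of active and poised genes. H3K27me3 is written by Polycomb repressive complex PRC2, spreads over flanking chromatin and is bound by complexes that keep genes silent. In embryonic stem cells many genes of development carry both marks at once, and such bivalent promoters are described as silent but open to later activation, with the widest Polycomb domains over genes of lineage-specifying transcription factors. H3K27ac marks active promoters and enhancers and excludes methylation of the same lysine. H3K4me1 is typical of enhancers.

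The lists behind these values differed in size. H3K4me3 had 24757 to 28735 peaks per fraction and H3K27me3 had 31682 peaks in late G1 against 19989 in S. H3K27ac had 30168, 32521, 10268 and 19525 peaks, and H3K4me1 had 1878 to 6280. The number of reads behind each list is unknown here. Peak heights are the authors' values in deposited units whose scale is not given, so heights were compared between regions of the same list, or as relative heights, a height divided by the median of its list over a fixed set of regions.

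The domains had a median width of 6900 bp, with quartiles of 5925 and 9875 bp and a range from 5000 to 107375 bp, and together covered 1.73 Mb. At least 10 kb wide were 45 of them, and 9 were at least 20 kb. Most held a single bivalent region: 160 held 1, 20 held 2, 1 held 3, 1 held 4 and 1 held 11. Both of the most crowded domains were on chromosome 1, which had 41 of the 218 regions, 15 of them in these 2 domains. Many broad H3K27me3 peaks had no H3K4me3: of 851 early G1 peaks of at least 5 kb, 387 (45.5%) had no H3K4me3 peak in any fraction, 202 had one in all 4, and 183 (21.5%) held at least 1 of the 218 regions.

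The widest domain spanned chr7:27131926-27239300 (107375 bp) and held 1 bivalent region. The next were chr1:228743926-228786225 (42300 bp, 4 bivalent regions), chr1:161410276-161443850 (33575 bp, 11), chr15:96884476-96914975 (30500 bp, 1) and chr19:42413151-42443050 (29900 bp, 1). The domain at chr5:87967651-87992150 was 24500 bp wide, that at chr14:61102276-61126700 was 24425 bp, that at chr6:99271026-99293100 was 22075 bp, that at chr5:122417601-122437875 was 20275 bp and that at chr4:111544401-111564100 was 19700 bp. H3K4me3 took up little of most of them, between 0.753% and 6.91% of the width in early G1 for these 10 outside the 2 crowded domains, which had 30.3% and 23.2%. Over all 183 domains the median share of the width under H3K4me3 peaks was 12.1%, 7.92%, 7.97% and 7.98%.

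GATA6, which encodes a zinc-finger transcription factor of endoderm, lies beside 1 of the 218 regions, as the labels place a 4C viewpoint beside its promoter. Its promoter is shown to illustrate the kind of sequence found at such a gene. The 250 bases before the GATA6 start, on the plus strand at chr18:22169339-22169588 of GRCh38.p14, from RefSeq, are printed with each CpG in capitals. The position of this window relative to the peaks, which are on another build, was not determined.
GATA6 promoter: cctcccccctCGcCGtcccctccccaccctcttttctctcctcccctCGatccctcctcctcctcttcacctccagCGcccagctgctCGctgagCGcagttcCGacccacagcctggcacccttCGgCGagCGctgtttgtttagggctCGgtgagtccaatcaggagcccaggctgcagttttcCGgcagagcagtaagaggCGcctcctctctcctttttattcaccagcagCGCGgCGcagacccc
The window holds 16 CpG and 64.4% G and C. Of 35116 RefSeq promoter windows of this length, 14382 (41.0%) held at least as many CpG, and the median was 11.

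The GATA6 region, chr18:19748851-19749400, was 550 bp wide and lay 8944 bp from the restriction site with the most reads in the GATA6 4C libraries (position 19758344). Its H3K4me3 heights were 25.3, 38.7, 22.9 and 34.1. It was a small H3K4me3 peak among the 218, the 186th tallest in early G1. Its H3K27me3 heights were 274.9, 189.4, 95.2 and 153.2, each from the peak that overlapped the region. Relative to the list median over all regions with H3K4me3 in every fraction, its H3K4me3 exceeded early G1 by 1.65 (log2) in late G1, by 0.66 in S phase and by 1.26 in G2/M, and the late G1 value was the 35th largest of the 218. The H3K27me3 domain was split by a short gap in early G1 into peaks at chr18:19741651-19751800 (10150 bp) and chr18:19751926-19760650 (8725 bp). In late G1 a single peak of 18800 bp covered both, in S the 3 largest peaks were 3150, 6100 and 8075 bp wide, and in G2/M one of 18025 bp was listed. The domain had nearly the same extent in all 4 lists, while the number of peaks it was cut into changed. No H3K27ac or H3K4me1 peak overlapped the region in any fraction.

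**Figure D1:**
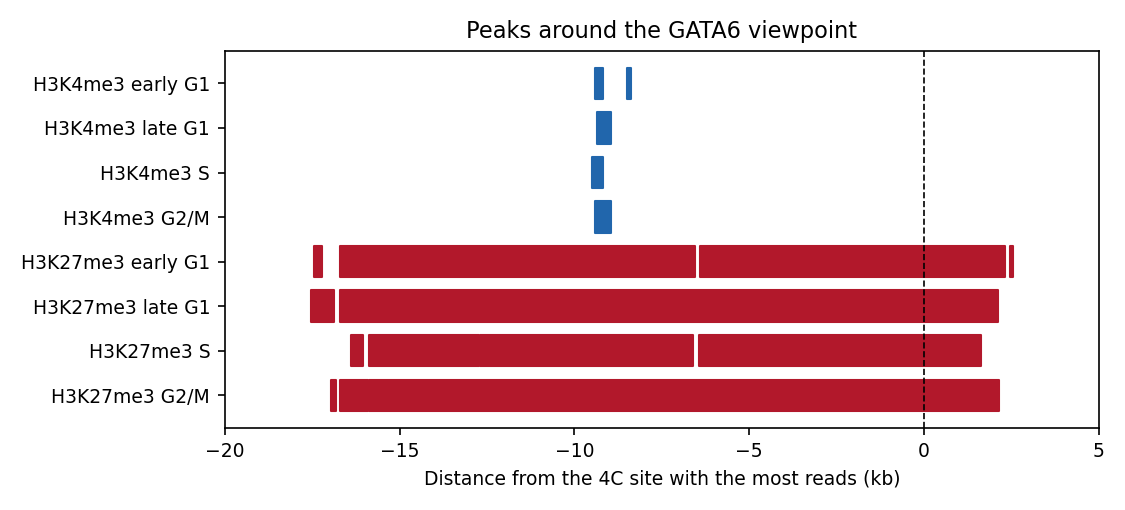
Peaks of H3K4me3 (blue) and H3K27me3 (red) around the GATA6 viewpoint in the 4 fractions, by distance in kb from the 4C site with the most reads (dashed line). The small H3K4me3 peaks lie inside an H3K27me3 domain that was listed as 1 main peak of 18800 bp in late G1 and as several peaks in early G1 and S.

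SOX17, another transcription factor of endoderm, had the broad domain but not the bivalent state. Its 4C viewpoint lay in an early G1 H3K27me3 peak of 21750 bp (chr8:55363476-55385225, height 274.2). The only H3K4me3 peak listed there was one of 100 bp in G2/M with a height of 13.5, so it is not among the 218.

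Breadth in early G1 chose the regions, and the other 3 fractions show how far that breadth was listed again. In late G1 187 of the 218 regions (85.8%, 80.4 to 90.1) overlapped an H3K27me3 peak of at least 5 kb. For S this number was 107 (49.1%, 42.3 to 55.9) and for G2/M 154 (70.6%, 64.1 to 76.6). Of the comparison regions 79 (4.83%), 4 (0.245%) and 55 (3.36%) did. A broad peak in all 4 fractions was found at 104 regions, in all but S at 44, in both G1 fractions alone at 36 and in early G1 alone at 25. A further 6 were broad in early G1 and G2/M and 3 in all but G2/M. A region broad in a later fraction but not in early G1 could not enter these counts. Intervals treat regions as independent and cover counting error only, although regions that share a domain are not independent.

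The median width of the widest H3K27me3 peak was 7112.5, 7262.5, 4912.5 and 6300 bp at the 218 regions and 1650, 1650, 775 and 1150 bp at the comparison regions. In S, 204 of the 218 (93.6%) had a narrower peak than in early G1, with a median ratio of widths of 0.721 (0.646 to 0.762). The comparison regions narrowed more in S, to 0.550 of the early G1 width (0.525 to 0.566). In G2/M the ratios were 0.899 and 0.796, and in late G1 0.997 and 1.02. The early G1 width that these ratios divide by also chose the groups, so the ratios are not independent of that choice. Its part in the narrowing was not tested. The shorter peaks in S mostly filled the same domains: S peaks covered a median of 87.0% of the domain's width, with 3.14 peaks per domain, against 98.7% and 1.74 in late G1 and 93.6% and 2.39 in G2/M. The S list also had the fewest H3K27me3 peaks of the 4 and the fewest of at least 5 kb (523, against 907, 1100 and 854 in early G1, late G1 and G2/M), and the part of this in the narrowing was not tested.

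**Figure D2:**
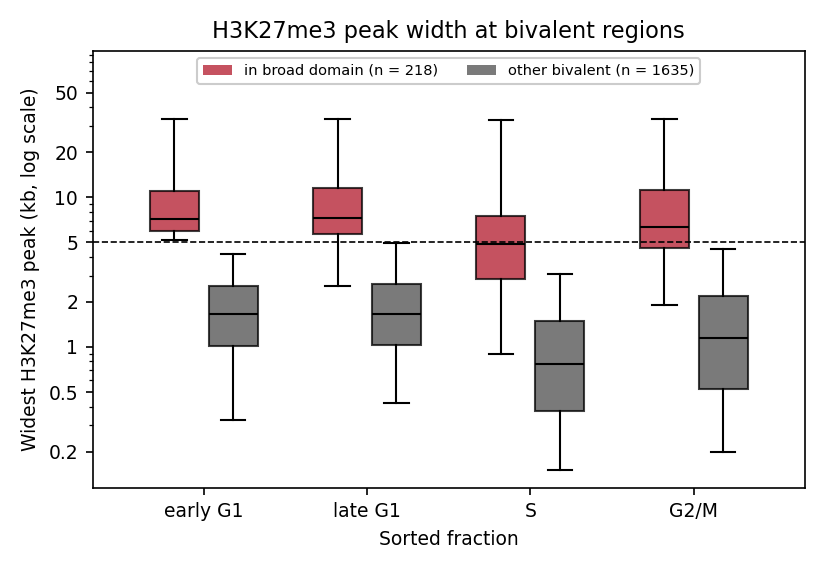
Width in kb (log scale) of the widest H3K27me3 peak at the 218 bivalent regions in broad early G1 domains (red) and the 1635 other bivalent regions (grey), by fraction. Boxes are quartiles with the median, whiskers the 5th to 95th percentiles, and the dashed line marks 5 kb, which chose the groups in early G1; the red median falls to 4912.5 bp in S.

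Of 6 regions at exactly 5000 bp, the first 3 by position were chr1:200011351-200012100, chr4:96469726-96471125 and chr11:111411176-111412150. Their early G1 H3K27me3 heights were 209.3, 130.4 and 178.8, and their H3K4me3 heights 55.6, 78.7 and 45.0. Just outside the limit were chr4:4387801-4389650 and chr6:144384701-144385625, both with a peak of 4975 bp, and chr2:136874976-136876100 with one of 4925 bp. These had H3K27me3 heights of 194.5, 183.4 and 203.0 and H3K4me3 heights of 39.7, 63.0 and 30.0.

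H3K27me3 was also taller inside the broad domains in every fraction. Each region takes the height of its tallest overlapping H3K27me3 peak, whose summit can lie outside the H3K4me3 peak. The median of these heights was 218.6, 181.8, 101.8 and 130.2 for the 218 regions and 84.0, 69.6, 34.5 and 43.4 for the comparison regions. The ratio of the medians was 2.60, 2.61, 2.95 (2.80 to 3.25) and 3.001 (2.69 to 3.31). No region of the 218 lay below the comparison median in early G1, and 9, 10 and 12 did in the other fractions. Height and width belong to the same peaks, so the early G1 value is a description of how the groups were chosen. In the later fractions the H3K27me3 peaks of the 218 were also wider, so those height ratios are not a result separate from width.

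H3K4me3 was present by the rule in every fraction, and its height was not used. It was low at both kinds of bivalent region, with a lower median inside the broad domains as drawn here. The median was 44.6, 35.5, 31.3 and 36.9 at the 218 regions, 54.5, 42.1, 38.4 and 44.4 at the comparison regions and 133.9, 65.5, 76.9 and 75.6 at all 14664 regions with the mark in every fraction. The ratio of the first medians to the second was 0.819 (0.737 to 0.903), 0.844 (0.790 to 0.933), 0.815 (0.717 to 0.953) and 0.831 (0.751 to 1.04), so that in G2/M the interval reached 1. The intervals leave out the error of the comparison medians. These ratios depended on how the groups were drawn: in the upper 50% of each list by score the ratio was above 1 in late G1 (1.36), S (1.06) and G2/M (1.05). The early G1 ratio was 0.907 (0.835 to 1.18) in that setting and 0.974 (0.874 to 1.09) with H3K27me3 over at least 50% of a region. At a width limit of 10 kb it was 0.937 (0.750 to 1.19), and with peaks of at least 500 bp 0.9495 (0.832 to 1.13). These intervals included 1, while in the other settings the early G1 interval stayed below 1. The share of the 218 below the comparison median was 63.3%, 62.4%, 58.3% and 55.5%. The groups overlapped widely.

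**Figure D3:**
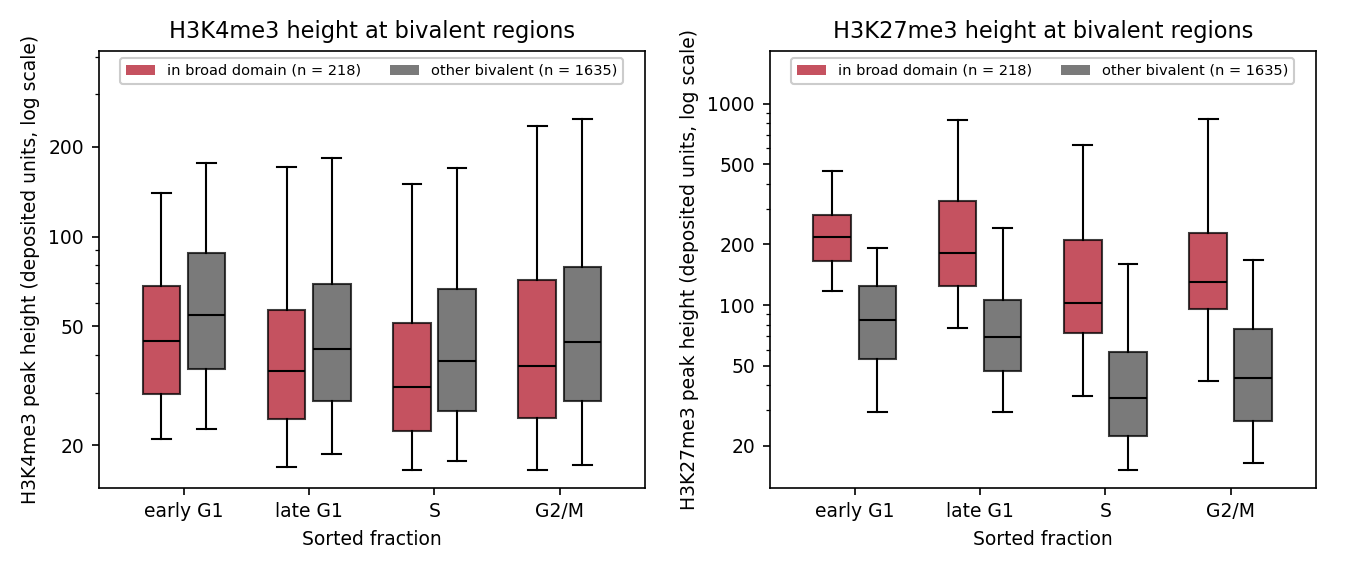
Peak heights in deposited units (log scale) of H3K4me3 (left) and H3K27me3 (right) at the 218 bivalent regions in broad domains (red) and the 1635 other bivalent regions (grey). Boxes are quartiles with the median and whiskers the 5th to 95th percentiles; H3K27me3 is higher in red in each list (medians 2.60 to 3.001 times), while the H3K4me3 boxes overlap with slightly lower red medians.

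Along the width of the early G1 peak, H3K4me3 height fell and then turned. Over bivalent regions with a widest early G1 H3K27me3 peak under 1000 bp, 1000 to 2000, 2000 to 3000 and 3000 to 5000 bp, the median early G1 H3K4me3 height was 60.6, 59.1, 48.2 and 46.9. Inside the broad group it was 44.0 for 122 regions of 5000 to 7500 bp, 36.2 for 34 regions up to 10000 bp and 49.9 for 62 regions above that. The last bin holds the 15 regions of the 2 crowded domains.

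The H3K4me3 peaks inside the domains were narrow. Their median width was 625, 525, 500 and 525 bp, against 675, 650, 650 and 600 bp in the comparison, where each region is represented by its tallest peak. In early G1 the tallest H3K4me3 peak was 8.03% as wide as the tallest H3K27me3 peak of the region, against 44.0% in the comparison. The summits of both marks were a median of 1646, 1257, 846 and 1350 bp apart inside the domains and 481, 353, 264 and 351 bp apart in the comparison. The H3K27me3 summit fell within the H3K4me3 peak in 22 (10.1%, 6.43 to 14.9), 55 (25.2%), 72 (33.0%) and 50 (22.9%) of the 218 regions. In the comparison it did so at 47.6%, 54.3%, 62.5% and 53.3%. Early G1 summit distances and shares are bounded by the peak width that chose the groups, and are a description. In the later fractions the H3K27me3 peaks of the 218 were also wider, so those distances and shares are not a result separate from width.

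Relative to all regions with H3K4me3 in every fraction, H3K4me3 inside the broad domains was lowest in early G1. The heights themselves were highest in early G1, with medians of 44.6, 35.5, 31.3 and 36.9 at the 218 regions. The median height over all 14664 regions fell further, from 133.9 to 65.5, 76.9 and 75.6. The median log2 difference from early G1 was 0.71 (0.59 to 0.85) for late G1, 0.31 (0.23 to 0.43) for S and 0.53 (0.38 to 0.75) for G2/M. The comparison regions had nearly the same medians, 0.65, 0.30 and 0.49, with intervals that overlapped those of the 218, and the median over all 14664 regions was 0.00, -0.04 and -0.05. In late G1 181 of the 218 (83.0%) had a higher relative height than in early G1, as had 152 (69.7%) in S and 165 (75.7%) in G2/M. With ranks within each list in place of heights the medians of the 218 were 0.65, 0.14 (-0.08 to 0.34) and 0.53, so that the S value was not clear of 0, and with the deposited scores they were 1.31, 0.96 and 1.15. The rise relative to other H3K4me3 regions was seen at both kinds of bivalent region. The low end of the lists moved less than the median that heights were divided by. The 5th percentile of H3K4me3 peak heights was 18.816, 15.978, 15.184 and 13.885. Low peaks could thus gain relative height in the later lists, and the part of this in the rise was not tested.

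At least a 2-fold higher relative H3K4me3 than in early G1 was found at 79 of the 218 regions in late G1 (36.2%, 29.9 to 43.0), where 15.1% of all 14664 regions passed that fold. For S it was 46 (21.1%, 15.9 to 27.1) beside 10.5% of all, and for G2/M 77 (35.3%, 29.0 to 42.1) beside 14.3%. The comparison regions had 34.1%, 18.3% and 28.7%. A fall of at least 2-fold was found at 3 of the 218 (1.38%) in each fraction, where 5.8%, 2.78% and 5.78% of all regions passed. A region had to keep a listed peak in every fraction to be counted, which limits how far a low one could fall.

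The largest late G1 rise was at chr5:77147101-77147800, inside a domain of 9875 bp. Its H3K4me3 heights were 20.8, 200.3, 153.0 and 219.9, log2 differences in relative height of 4.30, 3.68 and 4.23 for the 3 later fractions, so its relative height was low in early G1 alone. Its H3K27me3 heights moved the same way, 272.7, 930.2, 736.8 and 742.7. The region at chr7:113725701-113726450 followed, with H3K4me3 heights of 23.5, 170.3, 134.0 and 143.8 (log2 3.89) and H3K27me3 heights of 214.2, 674.7, 423.3 and 362.2. At chr15:66993551-67000800, the tallest H3K4me3 of the 218 in late G1, the heights were 238.0, 1349, 428.3 and 1323 (log2 3.54). Here late G1 and G2/M stood high and S lay nearer to early G1. The region at chr15:37392176-37394375 had 69.9, 367.7, 316.7 and 314.4 (log2 3.43), and chr1:228772326-228776775 had 88.5, 412.7, 275.7 and 305.3 (log2 3.25).

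The regions with the smallest values went the other way. At chr7:121946951-121951075, in a domain of 18800 bp, H3K4me3 heights were 240.7, 39.4, 59.1 and 21.5, a log2 difference of -1.58 in late G1 and -2.66 in G2/M. The H3K4me3 peak there narrowed from 4125 bp in early G1 to 1575, 2175 and 375 bp, while H3K27me3 height went from 116.0 to 503.5, 421.9 and 315.6. H3K4me3 was thus tall and H3K27me3 short in early G1 compared with the other 3 lists. The heights at chr6:26778926-26780925 were 75.4, 16.5, 28.5 and 25.6 (log2 -1.16), and those at chr1:119529376-119530950 were 83.7, 19.6, 17.8 and 15.3 (log2 -1.06). At the latter the overlapping H3K27me3 peak grew from 17250 bp to 28925, 26200 and 30000 bp. The region chr6:26721201-26723275 had a late G1 difference of -0.84 and chr1:23694376-23696075 one of -0.77, and in these 5 regions the relative height was below that of early G1 in each later fraction.

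The tallest H3K4me3 peak of the 218 in early G1 was at chr13:100632926-100639025, with heights of 399.4, 201.3, 246.2 and 138.7. Its relative height was nearly level in late G1 (0.04) and S (0.10) and lower in G2/M (-0.70). A neighbour at chr13:100630776-100632775 lay in a separate domain of 8900 bp and had heights of 189.5, 55.8, 59.2 and 68.1. The other regions among the 5 tallest were chr7:121946951-121951075, chr15:66993551-67000800 and chr1:161424201-161425900, the last with heights of 209.6, 154.1, 106.5 and 124.4.

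H3K27me3, taken relative to its median over all bivalent regions, differed little from early G1 in late G1 (median log2 0.00, -0.09 to 0.10) and was higher in S (0.20, 0.10 to 0.31) and G2/M (0.24, 0.11 to 0.37). The comparison medians were 0.02, 0.05 and 0.05. A rise of at least 2-fold was found at 36 (16.5%) of the 218 for late G1, 63 (28.9%, 22.98 to 35.4) for S and 43 (19.7%) for G2/M, where 12.1%, 16.2% and 15.2% of all bivalent regions passed. Regions that share a domain share its H3K27me3 height, and without the 15 regions of the 2 crowded domains of chromosome 1 the counts were 32 (15.8%), 48 (23.6%) and 28 (13.8%) of 203, so that the G2/M share then lay below that of all bivalent regions.

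Both marks tended to be higher at the same regions. Of the 79 regions with H3K4me3 up at least 2-fold in late G1, 24 (30.4%, 20.5 to 41.8) also had H3K27me3 up at least 2-fold, against 12 of the other 139 (8.63%, 4.54 to 14.6). In S it was 30 of 46 (65.2%, 49.8 to 78.6) against 33 of 172 (19.2%, 13.6 to 25.9), and in G2/M 27 of 77 (35.1%, 24.5 to 46.8) against 16 of 141 (11.3%, 6.63 to 17.8). The comparison regions showed the same order, 22.4% against 5.85%, 38.0% against 9.21% and 33.3% against 7.03%. Without the 15 regions of the 2 crowded domains the shares were 29.0% against 8.96% in late G1, 56.8% against 16.3% in S and 26.5% against 7.41% in G2/M. Each mark is compared with its own early G1 library, and the inputs were not analysed here.

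**Figure D4:**
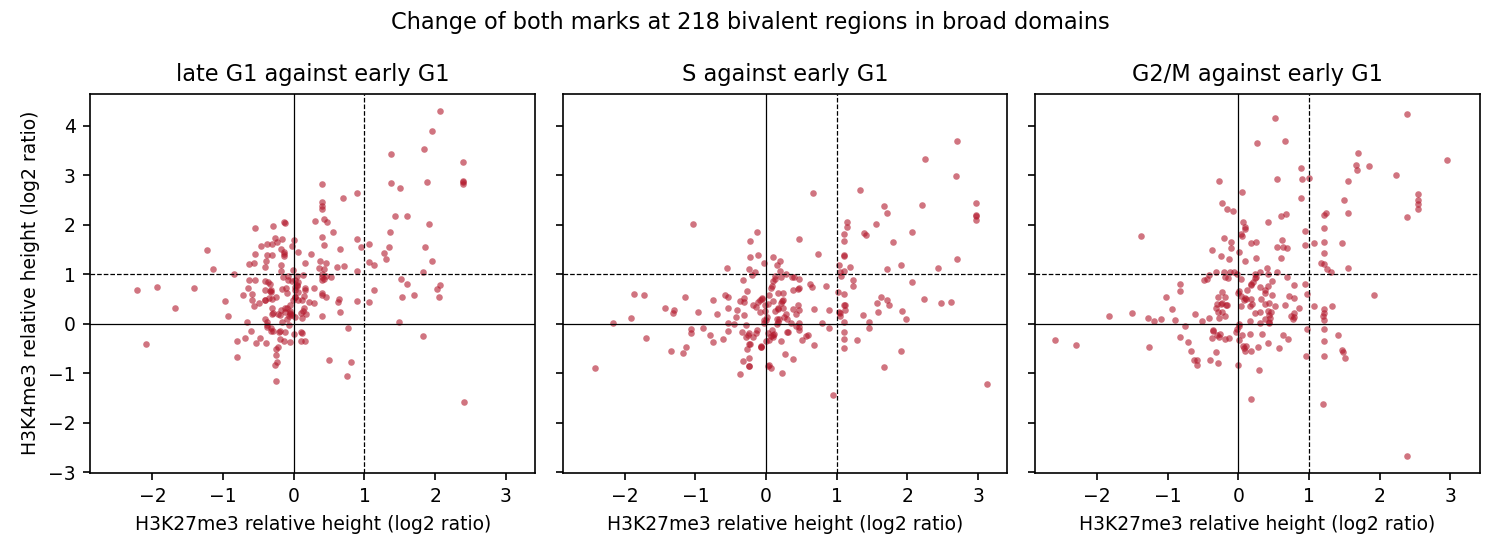
Log2 ratio to early G1 of relative H3K27me3 height (horizontal) and relative H3K4me3 height (vertical) at each of the 218 regions, for late G1, S and G2/M. Dashed lines mark a 2-fold rise; 24, 30 and 27 regions lie in the upper right field, where both marks passed it.

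Both marks were up at least 2-fold in all 3 later fractions at 13 regions (5.96%, 3.21 to 9.98), in 10 domains, beside 81 comparison regions (4.95%, 3.95 to 6.12). Of the 13, 4 were the regions of the domain at chr1:228743926-228786225, and without the crowded domains 9 of 203 (4.43%) were left. The median H3K4me3 height of the 13 was 57.9, 206.4, 173.6 and 288.6, and that of the other 205 was 44.6, 34.5, 29.2 and 35.3. The median H3K27me3 height was 235.0, 881.9, 511.2 and 491.5 against 216.4, 171.9, 98.2 and 121.5. The 13 were chosen for their rise from early G1, so their later heights describe that choice and are not a separate result. Besides those given, they include chr9:34588401-34590675, with H3K4me3 heights of 57.9, 206.4, 173.6 and 295.9, and chr5:87969776-87970925, with 24.1, 34.5, 47.9 and 125.5. The region chr12:106976776-106977725 had 34.4, 40.4, 42.9 and 167.9, highest in G2/M. The 2 remaining ones, chr18:76738276-76739500 and chr21:31311351-31312600, had smaller peaks, of at most 48.7 and 94.1.

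The 2 crowded domains stood apart from the others. In the 42300 bp domain at chr1:228743926-228786225, H3K4me3 peaks covered 30.3%, 93.1%, 85.4% and 64.7% of the width, in 32, 7, 33 and 43 peaks, and the 4 bivalent regions rose in late G1 by 2.82 to 3.25 (log2). In the 33575 bp domain at chr1:161410276-161443850 the H3K27me3 height was 698.7, 750.4, 620.5 and 842.9, the highest of the 218 in early G1. Its 11 regions fell into 2 kinds by their early G1 H3K4me3 height, a split at 100 made after the values were seen. The lower 5 had early G1 heights of 19.5 to 34.2 and started 7300 to 7450 bp apart from each other, a regular spacing along the whole domain. These lower 5 rose in late G1 by 1.75 to 2.83 (log2) to heights of 51.7 to 70.1. The other 6 had early G1 heights of 136.2 to 209.6 and differed in late G1 by 0.16 to 1.01. Their starts were 6625 to 7400 bp apart except for a pair 775 bp apart, so a near-regular spacing was not particular to the lower 5. Whether these domains are tandem repeats, where reads of several copies can be placed at 1 position, was not tested without a genome of the build, so their heights, numbers of regions and rises may not be those of single-copy sequence.

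H3K27ac, which the rule did not use, was rare inside the broad domains. An H3K27ac peak overlapped 4 of the 218 regions in both early G1 and G2/M (1.83%, 0.502 to 4.63), 6 in late G1 (2.75%, 1.02 to 5.89) and none in S (upper bound 1.68%). The comparison regions had 6.97% (5.79 to 8.32), 6.12% (5.004 to 7.39), 0.917% (0.514 to 1.51) and 2.69% (1.96 to 3.60), and all regions with H3K4me3 in every fraction had 44.6%, 30.8%, 8.69% and 17.9%. The intervals of the 218 and the comparison were apart in early G1 and overlapped in the other fractions. Taken over the 4 fractions, 10 of the 218 (4.59%, 2.22 to 8.27) had an H3K27ac peak in at least 1, against 166 comparison regions (10.2%, 8.73 to 11.7) and 48.9% of all. Within 2500 bp in place of an overlap, the early G1 share was 5.05%.

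**Figure D5:**
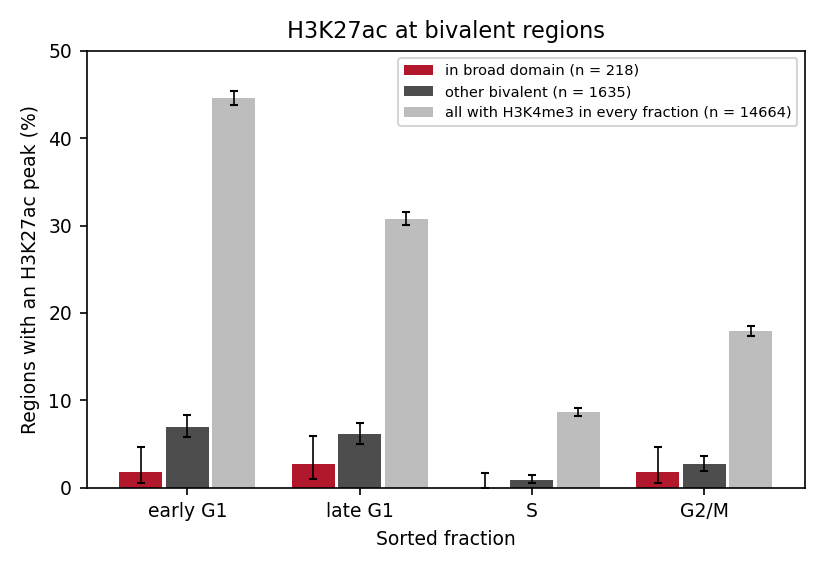
Share (%) of regions that overlapped an H3K27ac peak, by fraction, for the 218 bivalent regions in broad domains (red), the 1635 other bivalent regions (dark grey) and all 14664 regions with H3K4me3 in every fraction (light grey). Bars carry exact 95% intervals for counting error; red bars lie between 0 and 2.75%, and light grey bars between 8.69% and 44.6%.

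No region had H3K27ac in all 4 fractions. The one with most was chr4:111535476-111537525, acetylated in early G1, late G1 and G2/M, in a domain of 9450 bp and with H3K4me3 heights of 44.7, 25.1, 20.1 and 23.4. In late G1 and G2/M it was found at 2 regions, chr7:113725701-113726450 and chr1:61522401-61523250, and both also had relative H3K4me3 more than 2-fold above early G1 in every later fraction. The chr4 region did not (log2 0.20, -0.35 and -0.11). Of all 218, 38 (17.4%, 12.6 to 23.1) had such a rise of at least 2-fold, beside 217 comparison regions (13.3%, 11.7 to 15.0), with intervals that overlapped. The other 7 acetylated regions had H3K27ac in 1 fraction, and some of them had such a rise while others did not. Whether H3K27ac goes with the rise was not tested. The acetylation peaks had median heights of 24.4 in early G1, 23.4 in late G1 and 21.5 in G2/M, near the medians of their lists (25.8, 23.1 and 17.99). The share with any H3K27ac was 12.8%, 10.5%, 7.99% and 8.30% over the bins of early G1 H3K27me3 width up to 5000 bp, and 3.28%, 8.82% and 4.84% over those above. The shares above 5000 bp rest on 4 of 122, 3 of 34 and 3 of 62 regions. Their intervals, 0.90 to 8.18, 1.86 to 23.7 and 1.01 to 13.5, overlapped, so no order among them can be read.

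H3K4me1 was rare at every kind of region, and its lists were short. It overlapped 2, 2, 3 and 6 of the 218 regions (0.917%, 0.917%, 1.38% and 2.75%), against 0.183%, 0.245%, 0.979% and 0.428% of the comparison. Over all 14664 regions with H3K4me3 in every fraction the shares were 0.307%, 0.368%, 0.716% and 0.484%, below those of the 218 in each fraction. Part of the overlap at the 218 lay in the crowded domains. Without them the shares were 0.493%, 0%, 0.493% and 1.48%, in late G1 and S below those of all regions. Outside them, chr13:100632926-100639025 had H3K4me1 in 2 fractions, S and G2/M, and had H3K27ac in late G1.

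The 4C libraries count ligation products between a viewpoint and restriction sites elsewhere. Reads on chromosomes other than that of the viewpoint were counted per restriction site, inside the domains and over all sites, in libraries of 8905806 to 17076409 reads for GATA6 and 7491195 to 15566252 for SOX17. For GATA6, 409 sites inside domains had 16.7, 19.2, 8.19 and 13.9 reads per site against 4.84, 4.58, 2.56 and 4.53 over all sites, a ratio of 3.45, 4.19, 3.20 and 3.08. For SOX17, 397 sites gave ratios of 3.29, 3.52, 2.45 and 2.54. All 8 libraries had more reads per site inside the domains than over all sites. The early G1 H3K27me3 peaks of the comparison regions had ratios of 2.10 to 2.84 for GATA6 and 2.11 to 2.36 for SOX17, below those of the domains in each library. Broad early G1 peaks that held none of the 218 regions had the highest ratios, 4.94 to 5.95 and 5.21 to 6.83.

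The share of sites with any read gave the same order for GATA6. It was 17.4%, 21.03%, 21.5% and 9.54% inside the domains, 11.4%, 14.7%, 16.1% and 7.46% in the comparison peaks and 25.6%, 32.7%, 32.9% and 16.9% in the broad peaks without a member region, beside 7.28%, 8.26%, 9.18% and 5.17% of all sites. For SOX17 the domains had 16.6%, 15.6%, 21.2% and 7.56%, the comparison peaks 7.83%, 8.87%, 10.3% and 2.61% and the broad peaks without a member region 24.2%, 23.99%, 28.1% and 11.995%, beside 7.55%, 6.44%, 8.23% and 4.37% of all sites. In G2/M the SOX17 share of the comparison peaks was below that of all sites, although their ratio of reads per site was 2.12, and a single site gave 41.6% of their reads. Reads are PCR products without molecular identifiers, and a single site gave 12.6% to 27.9% of the reads inside the domains.

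Few domains had reads in every fraction. For GATA6, 141 domains held a site, 77 had a read in at least 1 fraction and 17 (12.1%, 7.18 to 18.6) in all 4. For SOX17 these were 138, 64 and 13 (9.42%, 5.11 to 15.6), and 7 domains had reads in all 4 fractions from both viewpoints. Broad peaks without a member region had reads in all 4 fractions at 26.5% (22.9 to 30.4) and 21.4% (17.98 to 25.1) of those with a site, at a like number of sites per peak (3.09 and 3.11 against 2.90 and 2.88). The domain with the most GATA6 reads was chr17:35286526-35305975, with 1323, 1643, 1028 and 1797 reads, and it had 208, 169, 186 and 252 from SOX17. The widest domain, chr7:27131926-27239300, had the most SOX17 reads, 1262, 991, 261 and 750, and had 364, 790, 205 and 1 from GATA6. These 2 domains were named after their values were seen.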

How the data were processed

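The 218 regions, their limits and the alternatives were chosen with earlier results of these data known. ChIP files are peak lists, 1 per library. The deposited signal column was used as the authors' peak height and the deposited score column as an alternative; what they are was read from the values. The sources used here do not give their scaling, the caller or its settings. Per the submitters' processing notes, Bowtie 0.12.7, hg19 and mm9 were used in roles that are not specified; coordinates are as deposited, read as hg19. Heights were 0 on the chromosomes coded 22 to 24, which were left out. The 4C table holds the authors' counts, whole-number reads per restriction site; the viewpoint was taken as the site with the most reads. Inputs were not analysed here. The other deposited columns (peak start, end, length and summit offset) are positions in bp.

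A region's height is that of its tallest overlapping peak, its width that of the widest, and its domain the widest early G1 H3K27me3 peak. Relative height is a height divided by the list median over the 14664 regions with H3K4me3 in every fraction (H3K4me3) or the 1853 bivalent regions (H3K27me3). Shares carry exact Clopper-Pearson 95% intervals, medians and ratios of medians exact order-statistic intervals, for counting error only. With 1 library per group there was no test. Regions were named by rule: the 10 widest domains, the 5 domains with the most regions, 3 on each side of the width limit, the 5 largest and 5 smallest late against early G1 ratios, the 5 tallest in early G1, and those with most H3K27ac or H3K4me1; the regions with both marks up, and the 4C domains, were added after values were seen. Planned gene lists were not tested without an annotation of the build. The scripts were tested on simulated intervals. Python 3.11.15, numpy 2.4.6, pandas 2.3.3, scipy 1.17.1 and matplotlib 3.10.9 were used.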

Additional observations from a re-analysis of the deposited data

How the results depend on the processing

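No paired analysis was possible because each mark or viewpoint had 1 library per fraction. Of 243 values recomputed under 14 alternatives, 152 stayed within their 95% interval (for counts, within 1.5 times), 85 left it, some by little, and 6 reversed. Removing the 2 crowded domains or regions with H3K27ac was added after the data were seen. The cause of each shift was not tested beyond the smaller or larger set of regions.

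The number of regions was 62 at a width limit of 10 kb, 507 at 3 kb, 66 with peaks of at least 500 bp and 43 in the upper 50% of each list by score. The share with an S peak of at least 5 kb was 82.3% of regions chosen at 10 kb, 21.3% of those chosen at 3 kb and 62.8% in the upper 50%. The limit in S stayed at 5 kb, so the shares at 10 kb and 3 kb do not use the limit that chose the regions. The H3K27me3 height ratio in S was 6.10 at 10 kb, 2.55 at 3 kb, 2.14 with H3K27me3 over at least 50% of a region, 2.31 with peaks of at least 500 bp, 3.802 in the upper 50% and 3.29 with breadth taken in G2/M. The H3K4me3 ratio in early G1 was 0.937 at 10 kb, 0.974 with 50% coverage, 0.9495 with 500 bp and 0.907 in the upper 50%. The interval included 1 in each of these settings. The H3K4me3 ratio went above 1 at 10 kb in S (1.01) and G2/M (1.01) and with 50% coverage in G2/M (1.03). In the upper 50% it did so in late G1 (1.36), S (1.06) and G2/M (1.05). The late G1 log2 difference of H3K4me3 was 0.996 with 500 bp, 0.86 in the upper 50%, 0.88 with breadth in G2/M and 1.31 from scores. The H3K27ac share in early G1 was 0% at 10 kb, 4.65% in the upper 50% and 5.05% within 2500 bp. The H3K4me1 share in G2/M was 6.45% at 10 kb and 13.9% in the upper 50%. The median 4C ratio for GATA6 (3.33) was 5.33 at 10 kb, 2.97 at 3 kb, 2.65 with 50% coverage, 1.75 with 500 bp, 6.81 in the upper 50%, 4.63 with breadth in G2/M, 2.37 with sites counted once and 2.67 without the site with the most reads. For SOX17 (2.92) these were 4.56, 3.58, 2.39, 5.42, 10.0, 5.78, 2.31 and 2.45, and 3.05 without regions with H3K27ac.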
